A study of Homo sapiens with 3 samples.

Results

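The 9 enzymes described here carry out the later steps of cholesterol synthesis, from the closing of the sterol ring to the final reductions, and include EBP and DHCR7, which bind tamoxifen. They were chosen by name as a pathway, with their fold changes in these same 3 libraries already known, so that their values are a description and not a test. All 9 were found among the 51136 genes of the count table. The cells were PANC-1, an established line from a human pancreatic duct carcinoma, sequenced as bulk RNA in 1 library for each of 3 conditions: control cells, cells given 200 μM of the ginsenoside Rg3 for 24 h, and cells given 50 μM tamoxifen (TAM) for 24 h. The labels give the control cells no agent and name neither a vehicle nor a time for them. The study compared the treatments with control cells to ask how each drug moved gene expression in this line. As each condition was sequenced once, differences have no replicate check. Each fold compares libraries, and its 95% interval (exact, Clopper-Pearson) covers counting error only.

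Cholesterol is built from acetyl-CoA through mevalonate to squalene, which is oxidised and then folded into lanosterol, the first sterol of the path. The enzymes after that point strip methyl groups from lanosterol and move or reduce its double bonds until cholesterol is left. Their genes are known targets of SREBP2, a transcription factor released from the endoplasmic reticulum when membrane sterol runs low. EBP, the emopamil-binding protein, and DHCR7 together form the antiestrogen binding site, a site of high affinity for tamoxifen that is separate from the oestrogen receptors.

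The promoter sequences of 3 of the 9 are shown because these genes stood at different points of the Rg3 response: by TMM-scaled counts MSMO1 had the highest fold of the 9, TM7SF2 the lowest (HSD17B7 once a trend on GC content and length was removed), and EBP is the tamoxifen-binding isomerase. Each is the 250 bases before an annotated start site, 5′ to 3′ on the gene's strand, from RefSeq on GRCh38.p14. These starts differ from the GENCODE gene starts given further on. The EBP window lies inside the GENCODE span of EBP, and those of MSMO1 and TM7SF2 run past the GENCODE starts. Capitals mark CCAAT boxes, which NF-Y binds, and GC boxes (GGGCGG), which Sp1 binds, on either strand. On the opposite strand they read ATTGG and CCGCCC.
MSMO1 promoter, chr4:165327419-165327668, plus strand: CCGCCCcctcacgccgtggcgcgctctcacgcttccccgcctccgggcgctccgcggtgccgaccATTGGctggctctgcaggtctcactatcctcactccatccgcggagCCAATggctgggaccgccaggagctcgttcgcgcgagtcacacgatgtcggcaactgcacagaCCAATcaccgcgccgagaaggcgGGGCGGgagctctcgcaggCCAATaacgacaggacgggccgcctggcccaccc
EBP promoter, chrX:48521558-48521807, plus strand: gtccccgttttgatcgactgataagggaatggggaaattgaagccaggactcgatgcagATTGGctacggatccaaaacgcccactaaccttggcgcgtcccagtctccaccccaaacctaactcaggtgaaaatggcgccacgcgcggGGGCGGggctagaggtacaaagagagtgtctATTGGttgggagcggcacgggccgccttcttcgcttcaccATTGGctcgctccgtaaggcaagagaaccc
TM7SF2 promoter, chr11:65111622-65111871, plus strand: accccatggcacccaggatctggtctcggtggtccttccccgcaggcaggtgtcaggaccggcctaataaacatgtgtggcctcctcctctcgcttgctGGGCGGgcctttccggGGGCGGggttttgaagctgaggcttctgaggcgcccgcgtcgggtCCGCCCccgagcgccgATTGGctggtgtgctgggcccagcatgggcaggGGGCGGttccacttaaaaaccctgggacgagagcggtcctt

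MSMO1 held 4 CCAAT boxes and 2 GC boxes in this window, EBP 3 CCAAT boxes and 1 GC box, and TM7SF2 1 CCAAT box and 4 GC boxes. Among the 9 enzymes, 8 had a CCAAT box, against 37.0% of the 27305 genes with a window in the table. CYP51A1 was the enzyme without one. A GC box was found in 8 of the 9, against 46.24% of genes, and NSDHL was the enzyme without one. NSDHL instead held 5 CCAAT boxes, 1 pair of them overlapping on opposite strands. The sterol regulatory element searched for, TCACNCCAC on either strand, was in 0 of the 9 windows and in 1.088% of genes, so that these letters are not in these windows and nothing about SREBP2 binding follows. SC5D and DHCR7 have 2 annotated starts each, and the second DHCR7 window held neither box. Of the 10 enzymes before lanosterol, 6 had a window, 5 of them with a CCAAT box and 6 with a GC box. These matches describe the letters only.

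**Figure D1:**
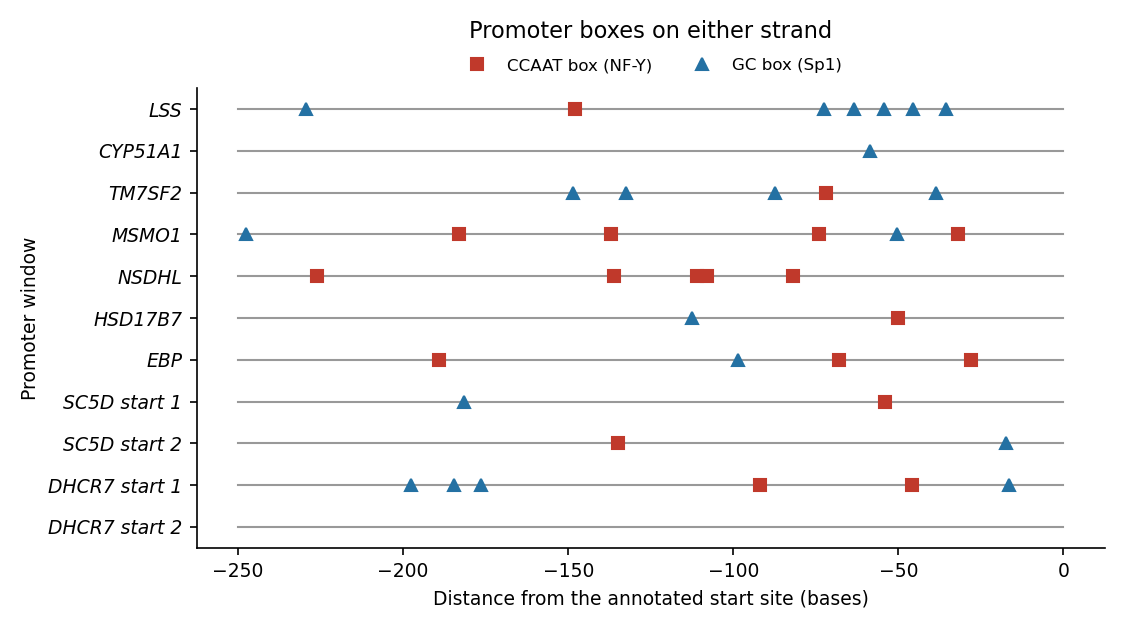
CCAAT boxes (red squares) and GC boxes (blue triangles) on either strand in the promoter windows of the 9 enzymes, by distance in bases from the annotated start site, with 1 line per window and 250 bases per line. MSMO1 and NSDHL hold 4 and 5 CCAAT boxes, and the CYP51A1 line holds none.

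The libraries held 11300766 (control), 12861693 (Rg3) and 11321442 (TAM) counted reads, and their TMM factors were 1.02, 1.12 and 0.879. Levels are given as counts and as CPM, the reads on a gene per 1000000 counted reads, after this scaling. The line's markers were present: KRT8 was at 543 to 1448 CPM and VIM at 2763 to 4814 CPM over the 3 libraries, while 5 of 5 acinar and 3 of 3 endocrine markers were at 0, and PTPRC, CD3E, PECAM1, CDH5, DCN and LUM had at most 2 reads each. CD68, also made by non-leukocytes, was at 29.6 to 111 CPM and COL1A1 at 69.8 to 161 CPM. The summed level of 5 epithelial markers was 2379 CPM in control, 1082 CPM in Rg3 and 2790 CPM in TAM, nearly all of it KRT8 and KRT18. The other 3 were lower with TAM than in control, KRT19 at 18.2 against 57.9 CPM, CDH1 at 0.502 against 6.62 and EPCAM at 0.804 against 2.26. The sum was thus lower in the library where the sterol enzymes were higher, and its part in the results was not tested. In bulk RNA, fewer cells of a type and less RNA per cell cannot be told apart.

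In the control library the 9 enzymes together had 6936 reads, or 604 CPM, against 25159 reads (1747 CPM) with Rg3 and 7931 reads (797 CPM) with TAM. On the scale of CPM per kilobase of the longest transcript (RPKM), DHCR7, the reductase that turns its precursor into cholesterol, was at 69.1 in control, followed by EBP at 53.3, NSDHL at 43.2, LSS at 26.8 and TM7SF2 at 19.3. HSD17B7 (8.04), SC5D (6.24), CYP51A1 (5.83) and MSMO1 (4.68) were far lower in RPKM. Among these 4, the intervals of neighbours in this order overlapped. The highest of the 9 stood 14.8 times over the lowest in control, 10.5 times with Rg3 and 20.6 times with TAM.

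With Rg3 the order of RPKM changed below the leading 4, which remained DHCR7 (196), EBP (122), NSDHL (87.2) and LSS (80.1). MSMO1, the lowest of the 9 in control, came next at 60.3, above SC5D (45.7) and CYP51A1 (28.1). TM7SF2 (23.2) and HSD17B7 (18.6) came last. No neighbours in this order had overlapping intervals, which cover counting error only. Changes of this order between libraries still carry the relation to GC content described further on. With TAM the leading 7 kept the control order, from DHCR7 at 99.9 and EBP at 77.3 to SC5D at 6.59, and only MSMO1 (5.31) and CYP51A1 (4.85) changed places, with overlapping intervals.

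**Figure D2:**
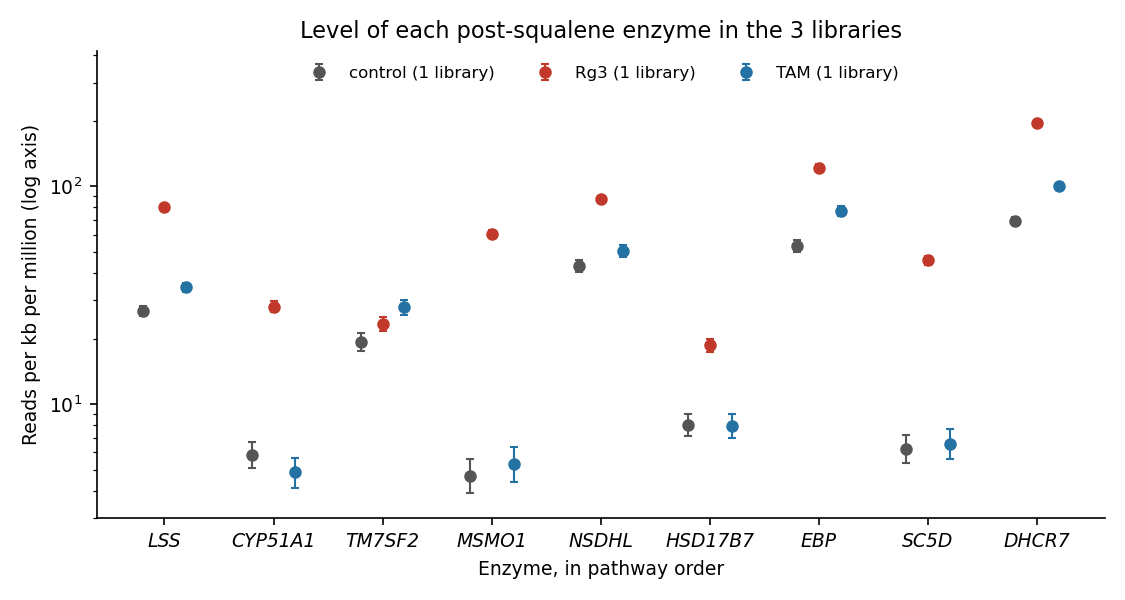
Level of each enzyme in the control, Rg3 and TAM libraries (1 library each), in RPKM on a log axis, with 95% Poisson intervals that cover counting error only. The Rg3 points of MSMO1 and SC5D, at 60.3 and 45.7, lie far over their control points of 4.68 and 6.24, while the TAM points stay near control.

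In the Rg3 library 8 of the 9 enzymes were more than 1.5-fold higher than in control and none was lower. The 3 largest folds were those of MSMO1, SC5D and CYP51A1, and TM7SF2 alone stayed inside 1.5-fold. After removal of a smooth relation to GC content and length, described further on, LSS at 2.14 and DHCR7 at 2.07 passed CYP51A1 at 1.73. TM7SF2, at 1.00, then passed 1.5-fold as well. Over all 16487 genes with at least 10 reads in either library, 25.0% were more than 1.5-fold higher and 19.5% lower. The median log2 fold change was 1.502 (2.83-fold) over the 9 and 0.04 over all genes compared. Both contrasts with control were known when the enzymes were chosen, so no inference is drawn from these counts.

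LSS (chr21:46188141-46228824, minus strand; gene positions are GENCODE 29 on GRCh38) closes oxidosqualene into lanosterol. It had 1517 reads (132 CPM) in control, 5692 (395 CPM) with Rg3 and 1690 (170 CPM) with TAM. Its log2 fold change with Rg3 was 1.58 (interval 1.499 to 1.66). CYP51A1 (chr7:92112151-92134803, minus strand) is the P450 that removes the first methyl group. It had 215, 1297 and 155 reads in control, Rg3 and TAM, or 18.7, 90.1 and 15.6 CPM. Rg3 stood apart from the other 2 libraries, at a log2 fold change of 2.27 (2.06 to 2.48) over control.

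TM7SF2 (chr11:65111845-65116384, plus strand) reduces the double bond that this demethylation leaves. Its reads were 463 in control, 701 with Rg3 and 580 with TAM, or 40.3, 48.7 and 58.3 CPM. With TMM it was the sole enzyme of the 9 with its highest CPM in the TAM library, while with library totals Rg3 was higher (54.5 against 51.2 CPM). Its log2 fold change with Rg3 was 0.27 (0.10 to 0.44). LBR, a nuclear envelope protein that can carry out the same reduction, had 298, 657 and 193 reads and a log2 fold change with Rg3 of 0.81 (0.61 to 1.02). The order of these 2 genes turned after the trend removal described further on. LBR (37.8% GC) was then at 0.07 with Rg3 and TM7SF2 (64.2% GC) at 1.00.

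MSMO1 (chr4:165327623-165343160, plus strand) is the oxidase that begins removal of the remaining methyl pair. It had 122 reads in control, 1970 with Rg3 and 120 with TAM, or 10.6, 137 and 12.1 CPM. That was a 12.9-fold difference between Rg3 and control, a log2 fold change of 3.69 (3.42 to 3.96), and rank 3 of the 10961 genes with at least 100 reads in either library. NSDHL (chrX:152830967-152869729, plus strand) takes the next step as a decarboxylating dehydrogenase. Its reads were 956, 2421 and 965 (83.3, 168 and 97.0 CPM), a log2 fold change with Rg3 of 1.01 (0.91 to 1.12). HSD17B7 (chr1:162790702-162812817, plus strand), the ketoreductase that completes this cycle, had 285, 829 and 243 reads (24.8, 57.6 and 24.4 CPM) and a log2 fold change of 1.21 (1.02 to 1.41). The 3 enzymes of this demethylation cycle thus spanned 2.02-fold to 12.9-fold.

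EBP (chrX:48521158-48528716, plus strand) is the isomerase that shifts the ring double bond. It had 1087 reads in control, 3121 with Rg3 and 1365 with TAM, or 94.7, 217 and 137 CPM. Rg3 was 2.29-fold over control, a log2 fold change of 1.19 (1.09 to 1.30). SC5D (chr11:121292453-121308694, plus strand), the desaturase that follows, had 176, 1615 and 161 reads (15.3, 112 and 16.2 CPM). Its Rg3 level was 7.32-fold over control, a log2 fold change of 2.87 (2.65 to 3.10), at rank 7 of the same 10961 genes. DHCR7 (chr11:71428193-71452868, minus strand) had 2115, 7513 and 2652 reads (184, 522 and 266 CPM) and a log2 fold change of 1.502 (1.43 to 1.57) with Rg3.

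The folds differed among the 9, which ratios of reads within a library show without any scaling between libraries. These ratios still carry the relation to GC content described further on. With that trend removed, the log2 fold changes of MSMO1, SC5D and EBP with Rg3 were 2.98, 2.19 and 1.56, closer together than before. For every EBP read there were 0.112 MSMO1 reads in control, 0.631 with Rg3 and 0.0879 with TAM. SC5D had 0.162, 0.517 and 0.118 reads per EBP read. TM7SF2 went the other way, at 0.426 in control, 0.225 with Rg3 and 0.425 with TAM. DHCR7, the partner of EBP in the antiestrogen binding site, had 1.95, 2.41 and 1.94. Of all reads on the 9 enzymes, MSMO1 took 1.76% in control, 7.83% with Rg3 and 1.51% with TAM. The share of TM7SF2 was 6.68%, 2.79% and 7.31%, and that of EBP was 15.7%, 12.4% and 17.2%.

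**Figure D3:**
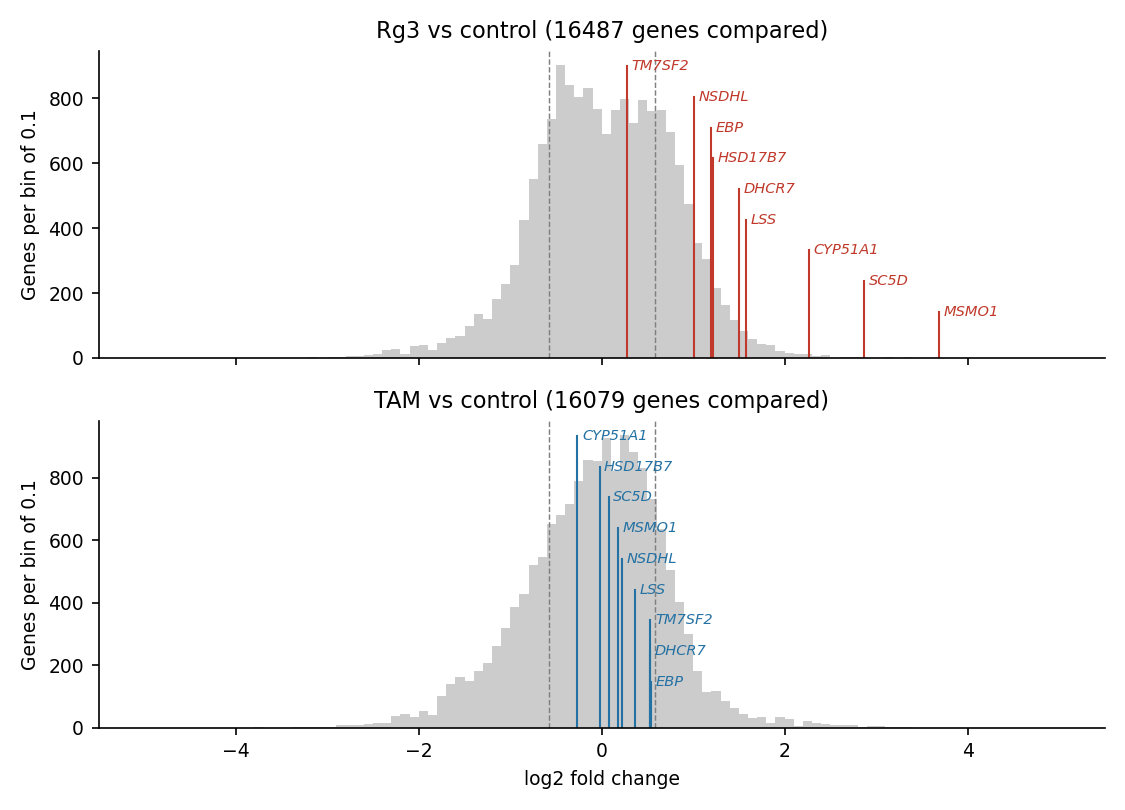
Distribution of log2 fold changes of all genes with at least 10 reads in either library (grey, genes per bin of 0.1) for Rg3 and for TAM against control, with coloured lines at the 9 enzymes. Line heights carry no value and dashed lines mark 1.5-fold up and 0.67-fold. With Rg3, 8 lines lie past the upper dashed line, and with TAM all 9 lie between the dashed lines.

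In the TAM library none of the 9 enzymes was past 1.5-fold in either direction. Over the 16079 genes compared, 17.4% were more than 1.5-fold higher and 23.8% lower. The median log2 fold change of the 9 was 0.22, against -0.02 over all genes. The log2 fold changes nearest the threshold were 0.53 in each of EBP (0.42 to 0.65), DHCR7 (0.45 to 0.62) and TM7SF2 (0.35 to 0.71). These 3 were each at 1.45-fold. LSS was at 0.36 (0.26 to 0.46) and NSDHL at 0.22 (0.09 to 0.35). Against genes of like GC content, EBP stood 0.42 above the band median and DHCR7 0.12.

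The other 4 enzymes had log2 fold changes with TAM whose intervals included 0. These were MSMO1 at 0.18 (-0.19 to 0.56), SC5D at 0.08 (-0.24 to 0.39), HSD17B7 at -0.02 (-0.28 to 0.23) and CYP51A1 at -0.27 (-0.57 to 0.04). They are also the 4 enzymes of low RPKM in control. Their intervals are the widest of the 9 because they had the fewest reads in the control and TAM libraries. Their signs depended on processing: dividing by library totals gave MSMO1 -0.03 and SC5D -0.13, and upper-quartile scaling gave HSD17B7 0.10. Upper-quartile scaling also put EBP (0.66), DHCR7 (0.66) and TM7SF2 (0.66) past 1.5-fold, making 3 of the 9 higher. Under that scaling 3756 of the 16079 genes compared were higher. Division by totals put EBP at 0.33.

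Scaling moved the whole distribution. With TMM, 56.1% of the genes past 1.5-fold or 0.67-fold with Rg3 were higher, against 69.1% with library totals and 42.04% with upper-quartile scaling. With TAM the share higher was 42.3%, 23.1% and 54.5%. Relative to TMM, the median of all genes shifted by 0.14 (totals) and -0.13 (upper quartile) with Rg3, and by -0.21 and 0.12 with TAM. The 8 enzymes past 1.5-fold with Rg3 stayed past it under each of these scalings.

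Set directly against Rg3, the TAM library was lower in 8 of the 9 enzymes by the same fold rule, and higher in none. Across the 16493 genes compared, 35.4% were lower and 30.0% higher. The median log2 difference was -1.22 over the 9 and -0.08 over all genes. MSMO1 differed by -3.50 (-3.78 to -3.24), SC5D by -2.79 and CYP51A1 by -2.53. The smallest differences past the rule were those of EBP at -0.66 (-0.75 to -0.57) and NSDHL at -0.79. Both came inside it with upper-quartile scaling, EBP at -0.40 and NSDHL at -0.54. That left 6 of the 9 lower, where 4694 of the 16493 genes compared were lower. TM7SF2, at 0.26 (0.10 to 0.42), was within 1.5-fold, and its sign turned to -0.09 with library totals. Of the genes past the rule in this comparison, 45.9% were higher with TMM, 29.3% with library totals and 57.1% with upper-quartile scaling, and the median of all genes shifted by -0.35 and 0.26. The 2 agents were given at different concentrations, so these values stand side by side as measured. Both contrasts with control also share the control library.

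The log2 fold change of genes followed the GC content of their transcripts, and with TAM also their length. In genes with at least 50 reads, Spearman's rho between log2 fold change and GC content was -0.81 across 11993 genes with Rg3 and 0.51 across 11407 genes with TAM. With transcript length rho was 0.20 with Rg3 and -0.46 with TAM in the same genes. Genes within a library are not independent replicates, so these are descriptions. The 9 enzymes spread over this range. MSMO1 (38.1% GC), SC5D (38.6%), CYP51A1 (41.5%) and HSD17B7 (41.7%) are AT-rich, NSDHL (50.5%) and EBP (53.5%) lie in the middle, and LSS (58.3%), DHCR7 (58.3%) and TM7SF2 (64.2%) are GC-rich.

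Set against genes of like GC content, the order of the enzymes with Rg3 was different. Among 2911 genes under 42% GC the median log2 fold change was 0.75. No gene of that band exceeded MSMO1, 3 exceeded SC5D and 12 exceeded CYP51A1. HSD17B7 was only 0.46 above the band median, with 293 genes above it. Among 2405 genes over 58% GC the median was -0.59. LSS had 2 genes above it in that band and DHCR7 had 3. TM7SF2, inside 1.5-fold by its raw value, was 0.86 above this band median with 38 genes above it. EBP was 1.40 above the median of 1583 genes between 50% and 54% GC, with 11 genes above it.

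When a smooth trend on GC content and length was removed across all genes, 9 of the 9 enzymes were more than 1.5-fold higher with Rg3, where 10.3% of 14828 genes were higher and 8.88% lower. Their log2 values then ran from 0.69 (HSD17B7) and 1.00 (TM7SF2) to 2.98 (MSMO1), with EBP at 1.56. With TAM, 0 of the 9 passed the fold in either direction, where 13.8% of 14547 genes were higher and 15.8% lower. The TAM value of EBP was then 0.17, that of DHCR7 0.12 and that of TM7SF2 -0.05, and CYP51A1 turned to 0.08. The AT-rich MSMO1 (0.56) and SC5D (0.46) had the highest of the trend-removed TAM values. Between TAM and Rg3, trend removal put TM7SF2 at -1.07 and HSD17B7 at -0.42. The part of GC content in the differences between libraries was not tested.

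**Figure D4:**
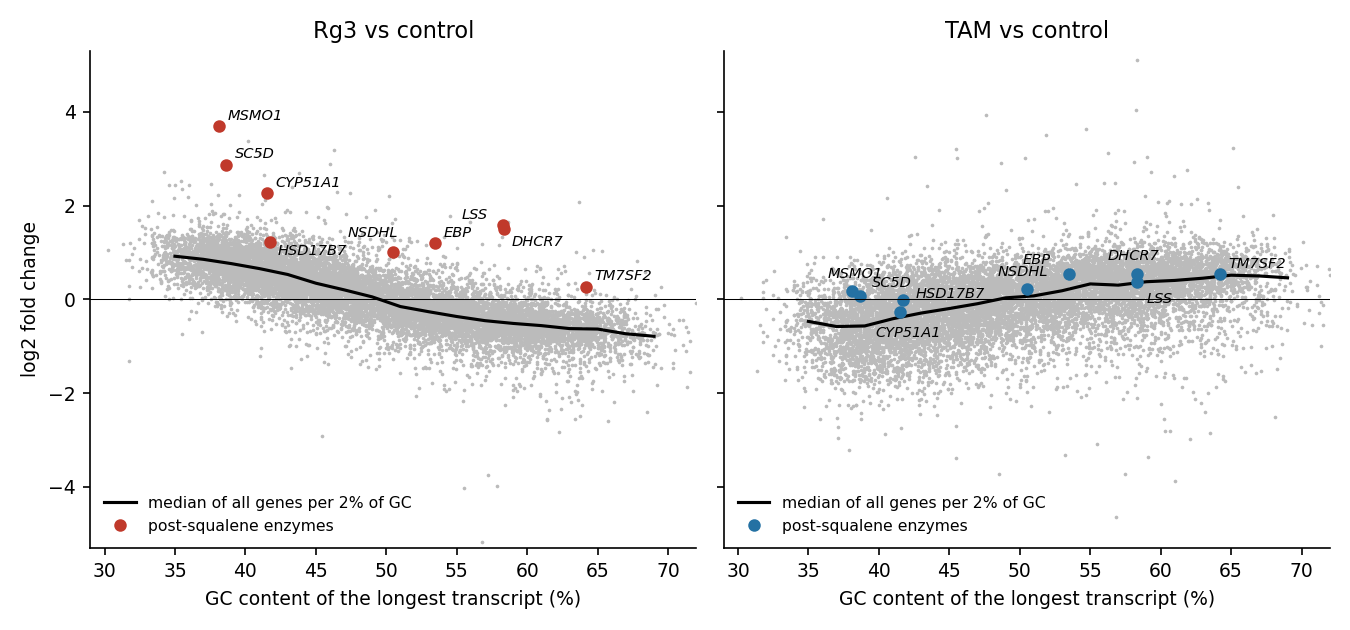
log2 fold change against the GC content of the longest transcript (percent) for genes with at least 50 reads in either library (grey points), with the median per 2% of GC as a black line and the 9 enzymes in colour. With Rg3 all 9 lie above the line, while with TAM they lie at most 0.68 from the median of the genes in their GC band.

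Some reads could be shared with near-identical copies or overlapping genes. In GENCODE, AC000120.2 overlaps exons of CYP51A1 on the same strand, but that name is not among the genes counted here. It holds 88.5% of the stretches of 50 bases of CYP51A1. CYP51A1 shares 10.1% and 13.7% of them with the pseudogenes CYP51A1P1 and CYP51A1P2. CYP51A1P1 had 33, 217 and 19 reads in control, Rg3 and TAM, and CYP51A1P2 had 24, 194 and 12. Adding both gave CYP51A1 a log2 fold change of 2.32 (2.14 to 2.51) with Rg3 and -0.34 (-0.62 to -0.07) with TAM. HSD17B7 shares 16.98% of its stretches with HSD17B7P2, and with its pseudogene reads added it was at 1.19 with Rg3 and -0.10 with TAM. Exons of TM7SF2 overlap VPS51 on the same strand, and exons of LSS overlap genes on the opposite strand, so reads counted without strand could not be told apart there.

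The enzymes before lanosterol were higher with Rg3 as well. Of the 10 listed, 9 were more than 1.5-fold higher and none lower, beside 25.0% and 19.5% of all genes compared, with a median log2 fold change of 2.14. HMGCS1, which makes HMG-CoA, was at 3.37 (3.20 to 3.55) and IDI1, the isopentenyl isomerase, at 3.11 (2.94 to 3.27). PMVK, the phosphomevalonate kinase, was the exception at -0.36 (-0.47 to -0.26), and at 0.25 with the trend removed. By TMM-scaled values each end of the pathway thus held 1 enzyme inside 1.5-fold, PMVK before lanosterol and TM7SF2 after it. With the trend removed TM7SF2 passed 1.5-fold, at 1.00, and PMVK did not.

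With TAM, 6 of these 10 were more than 1.5-fold higher and 1 was lower, beside 17.4% and 23.8% of all genes. ACAT2, the cytosolic thiolase, was at 1.103 (0.98 to 1.23), MVD at 1.01 and PMVK at 0.81, while HMGCS1 was at -0.62 (-0.91 to -0.34). With the GC and length trend removed, 2 of the 10 stayed higher (ACAT2 at 1.03 and FDFT1 at 0.60) and 0 were lower, beside 13.8% and 15.8%.

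**Figure D5:**
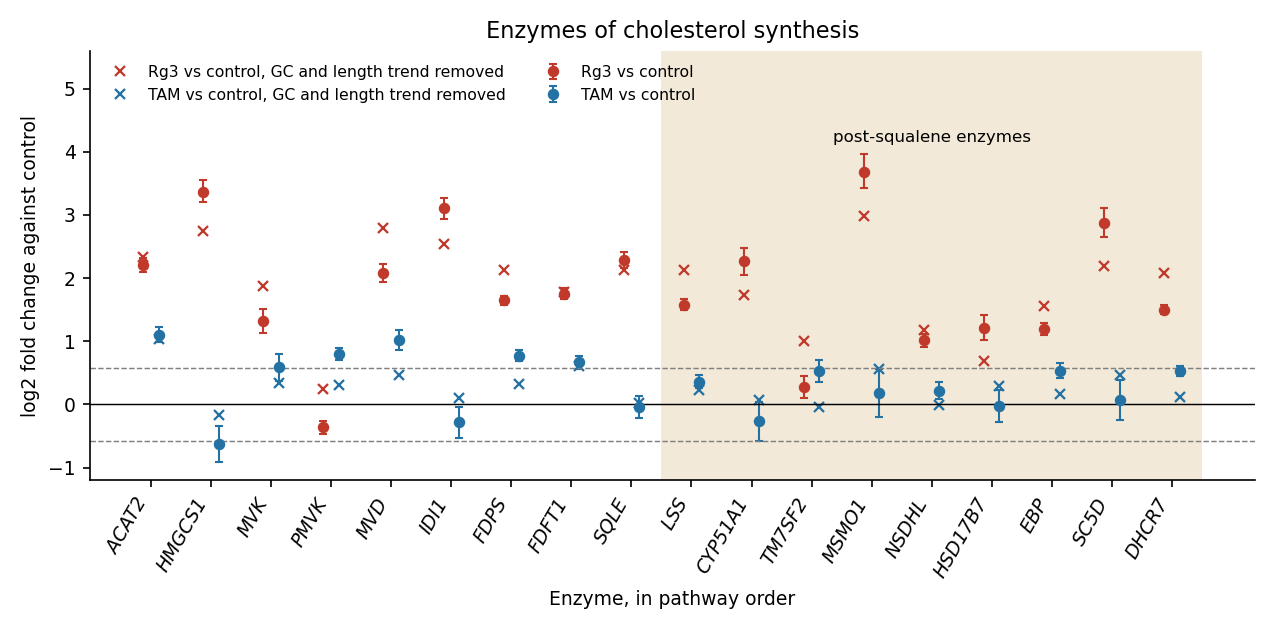
log2 fold change against control of enzymes of cholesterol synthesis, in pathway order, with Rg3 (red) and TAM (blue). Dots carry 95% counting intervals, crosses show values with the GC and length trend removed, dashed lines mark 1.5-fold and 0.67-fold, and the shaded band holds the 9 enzymes. The red dots lie above the upper dashed line except at PMVK (-0.36) and TM7SF2 (0.27).

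Of 9 other proteins of the later steps and their electron donors, FAXDC2 had no reads. With Rg3, 3 of the 8 compared were more than 1.5-fold higher, beside 25.0% of all genes. With the trend removed 2 of the 8 were, beside 10.3% of all genes. Among them ERG28, a scaffold of the demethylation enzymes, was at 1.30 and LBR at 0.81, or 0.07 with the trend removed. EBPL, a relative of EBP without known isomerase activity, had 327 reads in control, 402 with Rg3 and 339 with TAM. Its log2 fold change with Rg3 was -0.03 (-0.24 to 0.19), beside 1.19 for EBP. None of the 8 was past the fold with TAM, beside 17.4% of all genes higher and 23.8% lower. With the trend removed 1 was higher, the electron carrier CYB5A at 1.23, beside 13.8% of all genes. POR, the reductase that feeds CYP51A1, was at -0.29 with Rg3 and 0.42 with TAM. Both signs turned with the trend removed, to 0.37 with Rg3 and -0.07 with TAM.

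Among 6 other proteins known to bind tamoxifen, the oestrogen receptor ESR1 had 0 reads in each library, which allows up to 3 reads, and ESR2 had at most 2. EPHX1, once assigned to the antiestrogen binding site, had 453, 456 and 547 reads in control, Rg3 and TAM. TMEM97, the sigma-2 receptor, had 300, 1459 and 210 reads, at 1.96 (1.78 to 2.14) with Rg3 and -0.31 (-0.57 to -0.05) with TAM. GPER1, a membrane oestrogen receptor, had 16, 13 and 86 reads, at -0.63 (-1.80 to 0.52) with Rg3 and 2.63 (1.85 to 3.50) with TAM. Of the 4 compared, 1 was higher and 1 lower with Rg3, beside 25.0% and 19.5% of all genes. The lower one was GPER1, whose interval included 0. With TAM 2 were higher, beside 17.4% of all genes. After trend removal 1 was higher and 0 lower with Rg3, beside 10.3% and 8.88%, and GPER1 was at 0.02. With TAM 1 was then higher, beside 13.8%.

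By the pair of log2 fold changes, the genes nearest the median of the 9 enzymes, among 9862 genes with at least 100 reads in either library of both comparisons, were OSTM1, RPS14P1 and DCUN1D1. Their distances were 0.13 to 0.15 on the log2 scale. Nearest to EBP were CISD2, DBI, MPC1, VBP1 and EXOSC8, at distances of 0.08 to 0.12. This likeness rests on 3 libraries and on TMM-scaled folds that still follow GC content. EBP has 53.5% GC, while CISD2, DBI, VBP1 and EXOSC8 have 37.3% to 40.0% and MPC1 has 43.8%. OSTM1 (37.1%) and DCUN1D1 (33.9%) are also AT-rich. With Rg3, EBP was 1.40 above the median of its GC band. CISD2, DBI, VBP1 and EXOSC8, at 1.08 to 1.28, stayed below 1.35, the 95th percentile of genes under 42% GC. Nearness among genes of like GC content was not tested.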

How the data were processed

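RNA of PANC-1 cells was sequenced in 3 libraries. The methods name FAST-QC, TopHat and MAQ, and the submitters' processing notes name GRCh38. The counting tool, annotation and use of strand are not given in the sources used here. The authors deposited raw read counts per gene symbol (51136 genes), without normalization. The members and lists were chosen with earlier results of these data known, and lists were counted whole. The genes named as examples include some past the fold and some inside it. The genes nearest the 9 enzymes were taken by Euclidean distance of their log2 fold changes with Rg3 and with TAM.

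TMM factors came from edgeR 4.0.16 (R 4.3.3), and folds from Python 3.11.15. A gene was compared where 1 of the pair of libraries had at least 10 counts. A call is a fold over 1.5 or under 0.67, since the study's Limma criteria need replicates. Counts under 3 were raised to 3, and genes at or under 3 in both got no fold. Levels carry exact Poisson intervals and folds exact Clopper-Pearson intervals, at 95%, for counting error only, since reads without molecular identifiers are not independent molecules. The longest transcript in GENCODE 29 gave GC content and length, found for 89.9% of the genes compared with Rg3 and 90.5% with TAM, and their trend was removed by loess (span 0.3). Promoters are RefSeq's. Alternatives were library totals, DESeq2 1.42.0 size factors, upper-quartile scaling, count minimums of 1 and 50, a 2-fold rule, intervals past the fold, and trend removal. Added after seeing the data was the sum with pseudogene reads. The steps were tested on simulated data. A planned comparison of protein sequences was not made here, and some listed genes are not reported by name.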

Additional observations from a re-analysis of the deposited data

How the results depend on the processing

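The median log2 fold change of the 9 enzymes with Rg3, 1.502, was 1.64 with library totals, 1.37 with upper-quartile scaling and 1.73 with the GC and length trend removed. With TAM it was 0.22 and came to 0.011 with library totals. Under upper-quartile scaling 3 enzymes passed 1.5-fold where none did with TMM. Of the 16079 genes compared, 3756 were higher with upper-quartile scaling and 2799 with TMM. Between TAM and Rg3 the median of -1.22 became -1.57 with library totals, -0.96 with upper-quartile scaling and -1.68 with the trend removed. A 2-fold rule left 5 enzymes lower in place of 8, and the share of all genes under that rule was not computed. The sign of each enzyme with Rg3 was kept in 9 of 9 under every scaling and under trend removal. With TAM it was kept in 7 of 9 with library totals, 8 with DESeq2 size factors, 8 with upper-quartile scaling and 5 with the trend removed. Adding pseudogene reads, an alternative chosen after seeing the data, kept the sign of both genes concerned. No paired analysis was possible because the 3 conditions have 1 library each, and no replicate could be left out. Counts of 120 to 285 reads limit MSMO1, SC5D, CYP51A1 and HSD17B7 in the control and TAM libraries to the wide intervals given. Variation between cultures was not measured.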

Other observations

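Genes that sense or move sterol, counted from lists of 10 and 6 genes, also differed between the libraries. Of the sterol-sensing list, 9 could be compared. With Rg3, 4 of these were more than 1.5-fold higher and 1 lower, beside 25.0% and 19.5% of all genes. With TAM 0 were higher and 3 lower, beside 17.4% and 23.8%. INSIG1, which retains SREBP in the endoplasmic reticulum, had 355 reads in control, 3291 with Rg3 and 244 with TAM, a log2 fold change with Rg3 of 2.89 (2.73 to 3.05). STARD4, a sterol carrier, had 45, 371 and 14 reads, at 2.72 with Rg3 and -1.48 (-2.46 to -0.59) with TAM. SREBF2, the gene of SREBP2, was at 0.44 and -0.25, both inside 1.5-fold, and at 0.95 with Rg3, past 1.5-fold, once the trend on GC content and length was removed. SREBF1, the gene of SREBP1, was lower in both treated libraries, with 3722, 2444 and 701 reads and log2 fold changes of -0.93 and -2.20. With the trend removed the SREBF1 values were -0.25 and -2.46.

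Of the 6 genes of the LXR path, by which cells shed excess sterol, 5 were lower than 0.67-fold with Rg3 and 4 with TAM, where NR1H2 was higher at 0.64, beside 19.5% and 23.8% of all genes lower. With the trend removed 3 were lower with Rg3 and 4 with TAM, beside 8.88% and 15.8%. ABCG1 is among those lower with TAM, where its 2 reads were raised to 3. ABCA1, the cholesterol exporter, had 60 reads in control, 10 with Rg3 and 5 with TAM, at log2 fold changes of -2.91 (-4.04 to -1.93) and -3.38 (-5.05 to -2.08).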
